A study of Mus musculus with 6 samples.

Results

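The lymphoid inducer axis described here is the set of signals by which inducer cells and organizer cells of lymphoid tissue act on each other. It was taken as the 9 genes Lta, Ltb, Ltbr, Tnf, Tnfsf11, Tnfrsf11a, Madcam1, Il7 and Il7r, and every probe that the array annotation gives to 1 of these names was used, 16 of the 56605 probes that are not controls. The 56605 probes carry 36870 gene names in all. The genes were placed on an inducer side (the ligands Lta, Ltb and Tnf and the receptors Tnfrsf11a and Il7r, 9 probes) and on an organizer side (the receptor Ltbr, the ligands Tnfsf11 and Il7 and the adhesion molecule Madcam1, 7 probes). Transcriptome analysis was done on whole kidneys of 3 female MRL/MpJ mice (MRL), the control strain, and of 3 female MRL/MpJ-Fas lpr/lpr mice (LPR), all at 6 months of age and without any treatment named in the labels. LPR mice carry the lpr mutation of Fas, which encodes a death receptor of lymphocytes, in every cell of the body, and are used as a model of lupus nephritis. No cell type was isolated, and each mouse gave 1 array.

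In the development of lymph nodes, lymphoid tissue inducer cells carry lymphotoxin on their surface, a complex of the proteins of Lta and Ltb, and this complex binds the lymphotoxin β receptor (Ltbr) on stromal organizer cells. The organizer cells answer with chemokines, adhesion molecules and IL7, and IL7 and RANKL (Tnfsf11) sustain the inducer cells through the IL7 receptor (Il7r) and RANK (Tnfrsf11a). Mature T and B cells are also known to make lymphotoxin, and in tertiary lymphoid tissues of inflamed organs they can take the place of inducer cells.

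The values rest on 60-base probes, of which the first 30 bases are shown for those that the results turn on. These are the probes of the members with the largest changes, Ltb and Il7r, the 2 Tnf probes, which gave different results, and a Tnfrsf11a probe in which a stretch of 19 bases, in capitals, occurs again from base 30.
Ltb A_51_P302358: atctgtattcattcctggaggatcgactga
Il7r A_55_P2736590: tgaaggacaaagtacatttatgggtgtggc
Tnf A_51_P385099: tgggctttccgaattcactggagcctcgaa
Tnf A_55_P2740937: ttattgtctactcctcagagcccccagtct
Tnfrsf11a A_52_P1068320: ATCTAGACCTTAACAGTAAtccggcaggta

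Lymphotoxin β receptor and TNF receptors act through NF-κB factors, so the promoters of the members were searched for the κB consensus. The 250 bases before the RefSeq start (build GRCm38.p6) were searched on both strands for this motif of 10 bases, and no other motif was searched. Of the 8 members with a promoter in the table, 2 held a match, compared with 7.25% of 32851 mouse promoters of the same length. Ltb had 1 match, with its first base 87 bases before the start (shown as -87), and Madcam1 had 2 that do not overlap, at -83 and -70. The promoters of Lta, Tnf, Tnfrsf11a, Il7r, Ltbr and Tnfsf11 had no match in this window, and Il7 was not in the table. The promoters of Ltb (chr17:35194257-35194506, plus strand) and Madcam1 (chr10:79664309-79664558, plus strand) are shown with the matches in capitals, and that of Il7r (chr15:9529877-9530126, minus strand), the member with the largest rise, is shown beside them.
Ltb: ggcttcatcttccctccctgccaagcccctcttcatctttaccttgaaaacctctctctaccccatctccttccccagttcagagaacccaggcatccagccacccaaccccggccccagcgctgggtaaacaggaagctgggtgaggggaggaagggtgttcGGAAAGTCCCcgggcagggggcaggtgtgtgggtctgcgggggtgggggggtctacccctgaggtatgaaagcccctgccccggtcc
Madcam1: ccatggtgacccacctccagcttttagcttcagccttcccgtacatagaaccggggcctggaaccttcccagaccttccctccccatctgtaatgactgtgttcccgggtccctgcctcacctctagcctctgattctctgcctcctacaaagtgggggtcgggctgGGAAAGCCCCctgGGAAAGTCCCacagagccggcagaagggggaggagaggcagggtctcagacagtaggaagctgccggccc
Il7r: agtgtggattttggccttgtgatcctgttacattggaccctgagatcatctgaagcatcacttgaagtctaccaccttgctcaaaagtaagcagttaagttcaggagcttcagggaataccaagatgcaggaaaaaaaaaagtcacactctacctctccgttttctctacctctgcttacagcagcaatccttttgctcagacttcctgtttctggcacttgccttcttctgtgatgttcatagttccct

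All levels below are log2 intensities relative to the 75th percentile of the array, so a level of 0 is at that percentile, and a change is the mean of LPR minus the mean of MRL on this scale. Levels of different probes are not compared. Tests were limited to the 39924 probes with a signal well above background on 3 or more of the 6 arrays. Adjusted p-values are those of limma after Benjamini-Hochberg adjustment across these probes, and 0.05 was the threshold for a call. With 3 mice a group the smallest p of an exact permutation test is 0.1, so none was used. Between 69.6% and 73.5% of the spots of an array were well above background, no spot was saturated, and arrays correlated more closely within a group (r = 0.991 to 0.995) than between the groups (r = 0.970 to 0.978). The tubule markers, which identify the organ, had mean levels of 5.39 to 5.49 on the MRL arrays and 4.86 to 5.08 on the LPR arrays. Fas itself, taken as a check of the labels, was read by 2 probes. The brighter changed by -0.47 (standard error 0.24, adjusted p = 0.235). The other was well above background on the 3 LPR arrays but on none of the 3 MRL arrays, with LPR at least 1.47-fold higher (adjusted p = 0.0337). Neither probe was called lower in LPR mice, so Fas did not settle the labels, which rest on the sample titles.

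Of the 16 member probes, 12 could be tested, and 6 of these were higher in LPR mice, whereas 0 were lower. Over all tested probes, 6.54% were called higher and 6.07% lower. All 6 belonged to the inducer side. Each of its 5 genes had at least 1 probe that rose, compared with 7.99% of all tested genes, and by the brightest tested probe 3 of the 5 rose (Lta, Ltb and Il7r), whereas those of Tnf and Tnfrsf11a were not called. None of the 4 tested probes of the organizer side was called. In whole kidneys, a difference in the number of cells of a type and in the RNA per cell cannot be told apart.

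**Figure D1:**
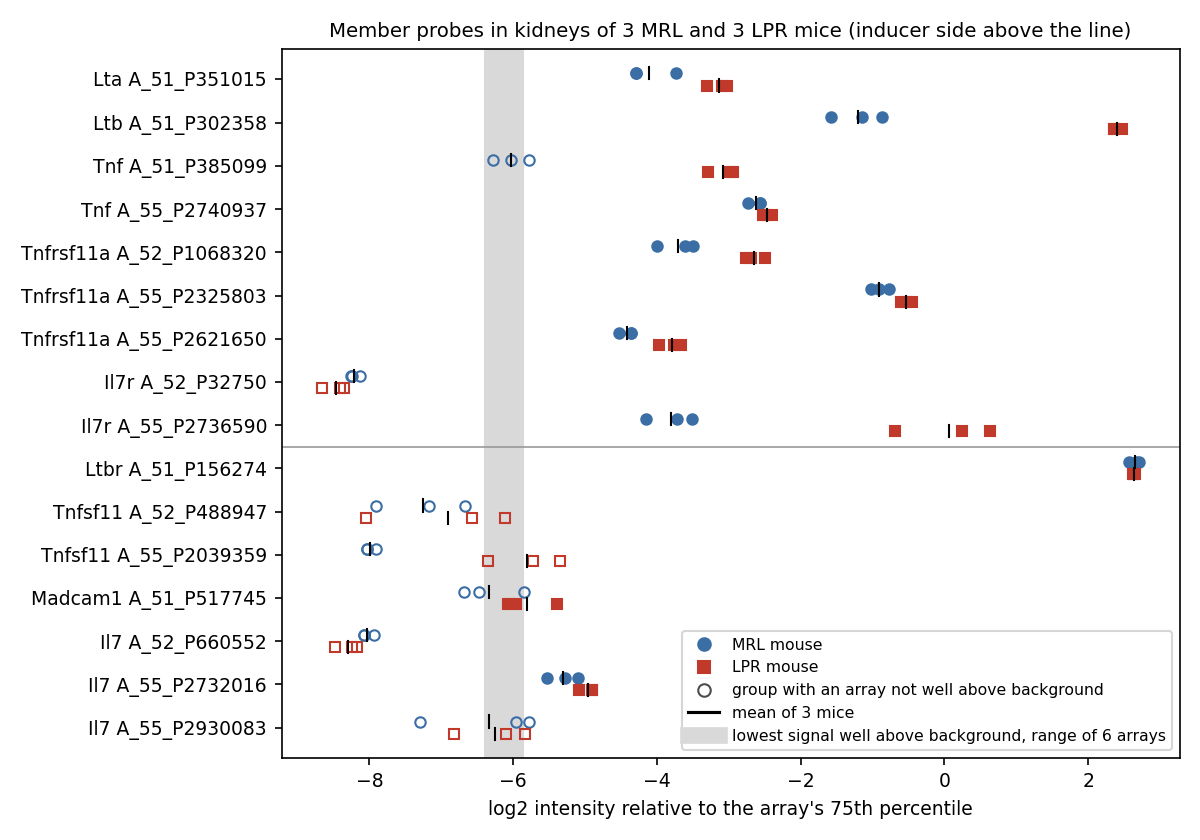
Level of each of the 16 member probes in each mouse (log2 intensity relative to the 75th percentile of the array), with MRL mice as circles, LPR mice as squares and the mean of 3 mice as a short line. Open symbols mark a group with at least 1 array not well above background, and the grey band spans the lowest signals well above background on the 6 arrays. The LPR values of Ltb, from 2.36 to 2.47, lie far above the MRL values, from -1.58 to -0.87, whereas the values of Ltbr in both groups lie between 2.57 and 2.71.

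Among the ligands of the inducer side, Ltb rose most. Ltb encodes the membrane-anchored subunit of surface lymphotoxin. Its probe (A_51_P302358, mm9 chr17:35333097-35333156, plus strand) gave -1.58, -1.15 and -0.87 in the 3 MRL mice and 2.36, 2.47 and 2.36 in the 3 LPR mice. The LPR mice lay close together, and the groups were far apart. The change was 3.60 (standard error 0.18), a 12.1-fold rise with a 95% confidence interval of 8.94 to 16.4 and an adjusted p of 5.41e-05. Ltb is also the member on chromosome 17 with a κB match in the promoter printed above.

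Lta, which encodes the soluble partner of Ltb and lies near it on chromosome 17, rose less. Its probe (A_51_P351015, mm9 chr17:35340275-35340334, minus strand) gave -4.29, -3.73 and -4.30 in MRL mice and -3.30, -3.09 and -3.03 in LPR mice. The signal was low in all mice but well above background on all 6 arrays, and the groups did not overlap. The change of 0.97 (standard error 0.18) was a 1.95-fold rise (adjusted p = 0.0171). This call was the less stable of the lymphotoxin pair, as the adjusted p was 0.0609, 0.0585 and 0.0622 without MRL mouse 1, MRL mouse 3 and LPR mouse 3, respectively.

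Tnf, which encodes the cytokine TNF and lies between Lta and Ltb, was read differently by its 2 probes. Both lie in the same RefSeq transcript, at bases 938 and 1110 of it, and both sequences are printed above. The probe at base 1110 (A_51_P385099, mm9 chr17:35336795-35336854, minus strand) gave -6.03, -6.28 and -5.78 in MRL mice and -2.99, -2.94 and -3.29 in LPR mice. It was well above background on 1 of the 3 MRL arrays and on all 3 LPR arrays, with a wide gap between the groups. Its change was 2.95 (standard error 0.17), which is 7.74-fold (adjusted p = 7.71e-05).

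The Tnf probe at base 938 (A_55_P2740937, mm9 chr17:35336967-35337026, minus strand) gave -2.57, -2.57 and -2.73 in MRL mice and -2.52, -2.40 and -2.48 in LPR mice. It was well above background on all arrays, and the highest MRL mouse lay just under the lowest LPR mouse. Its change of 0.16 (standard error 0.10, 95% confidence interval -0.09 to 0.40) did not pass the threshold (adjusted p = 0.35). The interval ends below the change of the other probe, so the size of the Tnf change is given for each probe and not for the gene. Why the probes differ was not tested.

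Il7r, which encodes the α chain of the IL7 receptor, had the largest change of all members. The probe of its RefSeq transcript (A_55_P2736590, mm9 chr15:9436822-9436881, minus strand) gave -3.73, -3.52 and -4.15 in MRL mice and 0.24, -0.69 and 0.64 in LPR mice. LPR mouse 2 was the lowest of its group, yet far above every MRL mouse. The rise of 3.86 (standard error 0.34) was 14.5-fold, with a 95% confidence interval of 8.24 to 25.6 and an adjusted p of 0.0006. A further Il7r probe (A_52_P32750), annotated to a cDNA clone without a RefSeq transcript, was not well above background on any array and was not tested.

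RANK (Tnfrsf11a), the receptor for RANKL on myeloid, dendritic and inducer cells, had 3 probes on chromosome 1, and all 3 were higher in every LPR mouse than in any MRL mouse. The probe with the repeated stretch (A_52_P1068320, mm9 chr1:107743752-107743811, plus strand) gave -3.50, -3.60 and -4.00 in MRL mice and -2.50, -2.69 and -2.77 in LPR mice, a change of 1.05 (standard error 0.16, adjusted p = 0.00743). The probe A_55_P2621650 (mm9 chr1:107710861-107710920, plus strand), annotated to an Ensembl transcript, gave -4.37, -4.36 and -4.53 against -3.67, -3.97 and -3.76, a change of 0.62 (standard error 0.12, adjusted p = 0.0195). The brightest of the 3 (A_55_P2325803, mm9 chr1:107741892-107741951, plus strand) gave -0.77, -1.03 and -0.92 against -0.60, -0.45 and -0.54, and its change of 0.37 (standard error 0.11) did not pass (adjusted p = 0.0764). The called rises of RANK were thus 1.54-fold and 2.07-fold, small beside those of Ltb and Il7r. The call of A_55_P2621650 was lost in 5 of the 6 fits that left out 1 mouse (adjusted p = 0.0539 to 0.0733) and kept only without LPR mouse 2 (adjusted p = 0.0166).

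On the organizer side, Ltbr, the receptor that lymphotoxin binds on stromal cells, stayed close to the same level in both groups. Its probe (A_51_P156274, mm9 chr6:125256614-125256673, minus strand) gave 2.57, 2.67 and 2.71 in MRL mice and 2.63, 2.63 and 2.65 in LPR mice. The LPR values fell inside the range of the MRL values. The change was -0.01 (standard error 0.10, adjusted p = 0.969), and its 95% confidence interval of -0.24 to 0.22 leaves room for a change of at most 1.17-fold up.

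IL7, the stromal cytokine that binds the product of Il7r, was read by 3 dim probes on chromosome 3. The probe A_55_P2732016 (mm9 chr3:7573196-7573255, minus strand) gave -5.53, -5.10 and -5.28 in MRL mice and -4.91, -5.08 and -4.90 in LPR mice, and its change of 0.34 (standard error 0.14) did not pass (adjusted p = 0.153). The probe A_55_P2930083 (mm9 chr3:7611912-7611971, minus strand) was well above background on 1 MRL and 2 LPR arrays, with values of -5.95, -5.77 and -7.30 against -6.10, -6.82 and -5.83 and a change of 0.09 (standard error 0.44, adjusted p = 0.908). In the first probe the groups just missed each other, and in the second they overlapped fully. The third (A_52_P660552) was not well above background on any array and was not tested.

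RANKL (Tnfsf11), which organizer stroma and activated T cells make, was near the background in all mice. The probe A_55_P2039359 (mm9 chr14:78677444-78677503, minus strand) was not well above background on any MRL array (-7.91, -8.04 and -8.03) and was so on 2 of the 3 LPR arrays (-5.72, -6.35 and -5.35), LPR mouse 2 being the exception. All LPR values lay above all MRL values, but with only 2 arrays above background this probe missed the filter. As the signal of LPR mouse 2 was not well above background either, no lower bound can be given for the rise of this probe. Without the filter its change was 2.19 (standard error 0.26, adjusted p = 0.00638). The other Tnfsf11 probe (A_52_P488947) was not well above background on any array, and its groups overlapped (-7.91, -7.18 and -6.67 against -6.57, -6.12 and -8.05).

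MAdCAM-1 (Madcam1), an adhesion molecule of high endothelial venules and of the marginal sinus that binds the integrin α4β7, was dim as well. Its probe (A_51_P517745, mm9 chr10:79127883-79128194, plus strand) is placed by the annotation over 312 bases, more than the 60 of the probe. It gave -6.47, -6.69 and -5.85 in MRL mice and -5.96, -6.08 and -5.40 in LPR mice, with 1 MRL array and 3 LPR arrays well above background. The groups overlapped, and the change of 0.53 (standard error 0.27, 95% confidence interval -0.11 to 1.16) did not pass (adjusted p = 0.233). The κB matches printed above thus belong to 1 member that rose and 1 that was not called.

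**Figure D2:**
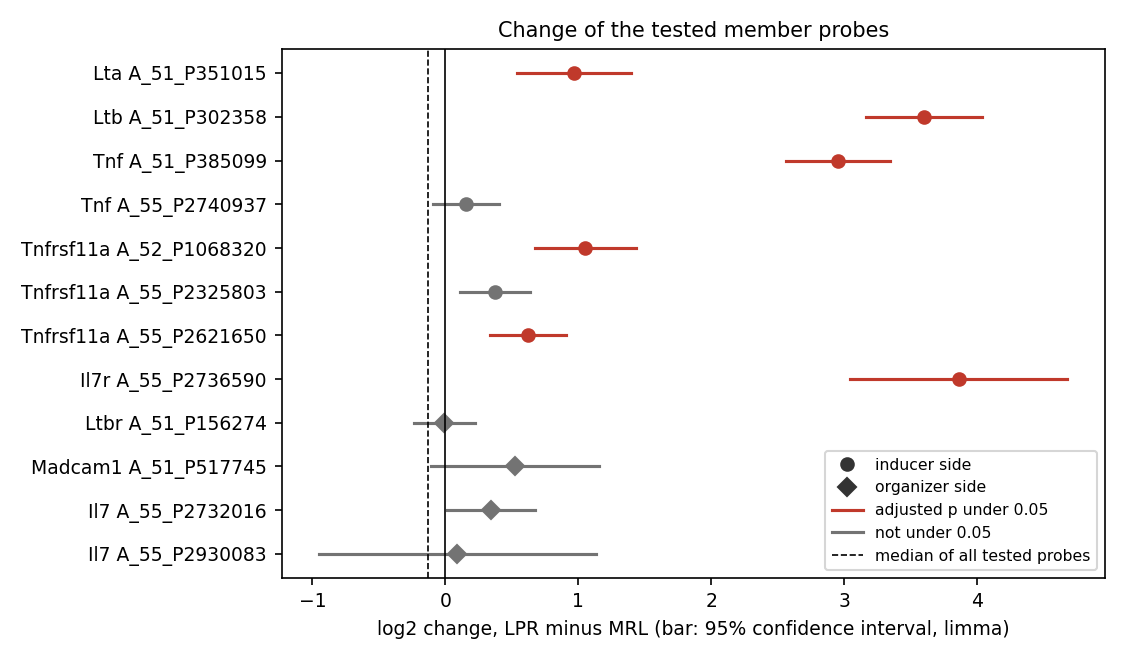
Log2 change (LPR minus MRL) of the 12 tested member probes with its 95% confidence interval from limma, for the inducer side (circles) and the organizer side (diamonds), with called probes in red. The dashed line is the median change of all tested probes, -0.13. The 6 called probes run from 0.62 to 3.86, and the organizer probes from -0.01 to 0.53.

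Set side by side, the 8 tested probes of the inducer side had changes from 0.16 to 3.86 with a median of 1.01, and the 4 of the organizer side had changes from -0.01 to 0.53 with a median of 0.22, where the median of all tested probes was -0.13. Every LPR mouse was above every MRL mouse for 8 of the 8 inducer probes and 1 of the 4 organizer probes, compared with 11.1% of all tested probes. On the organizer side limma called 0 probes, with 1 at an unadjusted p under 0.05 (Il7 A_55_P2732016), and the 2-tailed t-test of the methods called 0 after adjustment. On the inducer side this t-test called 4 probes after adjustment, those of Ltb and Il7r and 1 each of Tnf and Tnfrsf11a. Ltb and Il7r were at least 10-fold higher and called, as were 1.09% of all tested probes. Placing RANK on the organizer side and RANKL on the inducer side gave 4 higher of 5 tested inducer probes and 2 higher of 7 tested organizer probes. The organizer genes Tnfsf11, Il7 and Madcam1 were dim, and for them the number of arrays and the background limit what could be called.

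The partners and targets of the members were followed in 7 lists of genes, each gene by its brightest tested probe, for which 7.12% of all tested genes were called higher, 5.39% were called lower, and the median change was -0.12. Among the other receptors and ligands of the TNF superfamily, 1 of 7 genes rose and 0 fell, with a median of 0.33. The gene that rose was Tnfsf14, the ligand LIGHT that also binds the lymphotoxin β receptor, with a change of 1.33 (standard error 0.32, adjusted p = 0.0399). Osteoprotegerin (Tnfrsf11b), the decoy receptor of RANKL, changed by 1.66 without passing (standard error 0.50, adjusted p = 0.0764). Its probe was well above background on only 1 MRL array. TNF receptor 1 (Tnfrsf1a) changed by 0.33 (adjusted p = 0.103) at its brightest probe and by 0.39 (adjusted p = 0.0481) at another. TNF receptor 2 (Tnfrsf1b) was also read differently by its probes. The brighter one, annotated to a cDNA clone without a RefSeq transcript, changed by -0.14 (adjusted p = 0.42). The probe of its RefSeq transcript changed by 2.72 (adjusted p = 7.45e-05), but the brighter probe stands for the gene in the count.

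**Figure D3:**
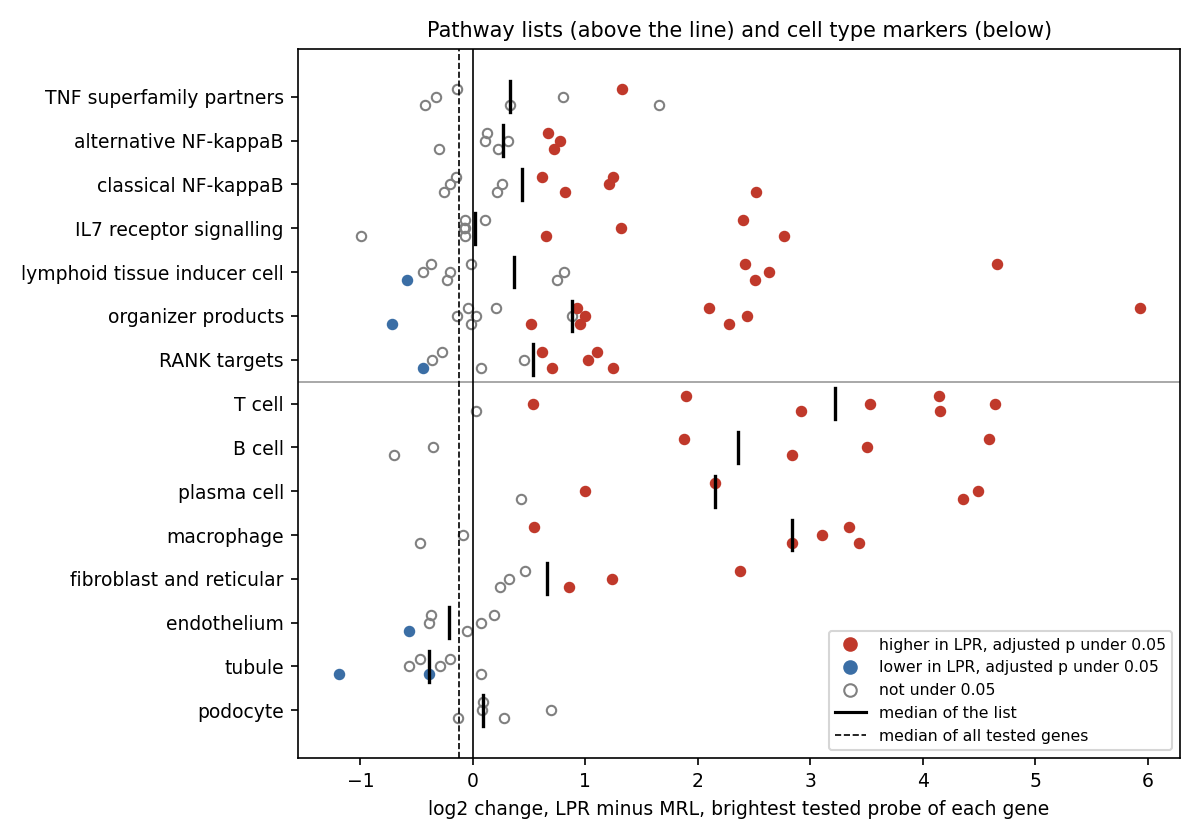
Log2 change (LPR minus MRL) of each gene of the 7 pathway lists, above the line, and of 8 lists of cell type markers, below it, by the brightest tested probe of the gene. Filled symbols are called higher (red) or lower (blue), the thick bar is the median of the list, and the dashed line is the median of all tested genes, -0.12. For Cxcr5, Dcstamp, Mmp9 and Fcrla, not above background on any MRL array, the point is a fitted value and not a measured change. The organizer products run from -0.72 for Enpp2 to 5.93 for Cxcl13, for which MRL mouse 1 was not well above background. The T cell, B cell, plasma cell and macrophage lists have medians of 2.15 to 3.22.

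The lymphotoxin β receptor is known to act through the alternative NF-κB pathway, in which NIK (Map3k14) drives the processing of p100 (Nfkb2) to a partner of RelB. Of 8 genes of this pathway, 3 rose and 0 fell (median 0.27). Nfkb2 gave 0.75, 0.83 and 0.82 in MRL mice and 1.46, 1.67 and 1.44 in LPR mice, a change of 0.72 (standard error 0.11, adjusted p = 0.00682). The largest rise was that of Relb, 0.78 (standard error 0.12, adjusted p = 0.00725), and of its 2 other probes, 1 also rose (0.91, adjusted p = 0.0143) and 1 gave -0.47 (adjusted p = 0.108). Chuk, the kinase gene IKKα, was not called at its brightest probe (-0.30, adjusted p = 0.175), but another Chuk probe was called lower (-0.41, adjusted p = 0.0493). Birc3, which encodes an inhibitor of apoptosis, had the smallest called rise, 0.67 (adjusted p = 0.0324), and Map3k14 itself changed by 0.31 without passing (adjusted p = 0.215).

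Of 10 genes of the classical NF-κB pathway, through which TNF acts, 5 rose and 0 fell (median 0.44). The largest rise was that of Traf1, an adaptor of TNF receptors, which gave -2.16, -1.86 and -2.17 in MRL mice and 0.43, 0.50 and 0.44 in LPR mice (change 2.52, standard error 0.12, adjusted p = 3.92e-05). The smallest called rise was that of Nfkb1, which encodes p105 and p50, at 0.61 (adjusted p = 0.00745).

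In the signalling of the IL7 receptor, 4 of 10 genes rose and 0 fell, with a median of 0.02. Il2rg, the common γ chain that pairs with the product of Il7r, gave -1.18, -0.91 and -1.02 in MRL mice and 1.48, 1.21 and 1.40 in LPR mice. Its change was 2.40 (standard error 0.13, adjusted p = 6.01e-05), so the transcripts of both chains of the receptor rose. The largest change was that of Socs1, an inhibitor of cytokine signalling, at 2.76 (standard error 0.16, adjusted p = 8.53e-05). The smallest called rise was that of the kinase gene Jak3, at 0.65 (adjusted p = 0.042). Other Jak3 probes were not called, with changes of 0.68 (adjusted p = 0.0914) and -0.21 (adjusted p = 0.23).

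Of the 14 genes listed for lymphoid tissue inducer cells, 12 could be tested, and 4 rose while 1 fell (median 0.37). The 4 that rose were the follicular homing receptor Cxcr5 (not well above background on any MRL array, LPR at least 11.1-fold higher, adjusted p = 0.000716), and, with measured log2 changes, the α4 integrin gene Itga4 (2.63), the chemokine receptor gene Ccr6 (2.51) and the regulator Tox (2.42). All 4 are known to be expressed in mature lymphocytes too. Il22, a cytokine of these cells, changed by -0.20 (adjusted p = 0.625), and Il23r and Il17a were not tested.

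Of 15 genes for known products of organizer cells, 8 rose and 1 fell, with a median of 0.88. Cxcl13, the chemokine that draws B cells, gave -6.05, -4.94 and -4.11 in MRL mice and 0.94, 0.82 and 0.90 in LPR mice, and its change of 5.93 (standard error 0.44, adjusted p = 0.000253) was the largest of the list. Vcam1 (2.28, adjusted p = 0.000592) and Icam1 (1.00, adjusted p = 0.00105), which encode adhesion molecules, rose as well, as did the T cell chemokine gene Ccl19 (2.10, adjusted p = 0.000547). Ccl21a, the chemokine gene of high endothelial and lymphatic vessels, changed by 0.88 without passing (standard error 0.24, adjusted p = 0.0571). The smallest called rise was that of podoplanin (Pdpn), 0.52 (adjusted p = 0.0237), and autotaxin (Enpp2) fell by 0.72 on the log2 scale (adjusted p = 0.0177).

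Of 10 genes that RANK is known to induce in osteoclasts, 5 rose and 1 fell (median 0.53). Dcstamp, needed for the fusion of osteoclast precursors, was called (adjusted p = 0.0159) but was not well above background on any MRL array, so that only a bound of at least 1.59-fold can be given for its rise. The smallest called rise among genes measured in both groups was that of the factor Nfatc1, 0.61 (standard error 0.15, adjusted p = 0.0427). Atp6v0d2, a proton pump subunit of osteoclasts that the collecting duct also uses, fell by 0.45 on the log2 scale (adjusted p = 0.0327). Over the 7 lists together, 30 genes rose and 3 fell. When any called probe of a gene was taken in place of the brightest, the genes that rose numbered 4 for the TNF superfamily, 3 for the alternative and 6 for the classical NF-κB pathway, 4 for IL7 receptor signalling, 5 for inducer cells, 8 for organizer products and 5 for the RANK list, and those that fell numbered 1 each for the alternative pathway, inducer cells, organizer products and the RANK list. Over all tested genes, 7.99% had a higher and 8.05% a lower probe by this rule.

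The markers of leukocytes moved with the inducer side. Of the T cell markers 7 of 8 rose, with mean levels of -1.82 to -1.55 on the MRL arrays and 0.87 to 1.10 on the LPR arrays. Of the B cell markers 4 of 6 tested rose (-4.33 to -4.12 against -2.40 to -2.16), Fcrla was not well above background on any MRL array, and Blk was not tested. Of the plasma cell markers 4 of 5 rose (-0.11 to 0.16 against 2.07 to 2.87), and of the macrophage markers 5 of 7 (0.52 to 1.02 against 2.48 to 2.57). These cells are known to express Ltb, Il7r, Tnf and RANK in various combinations, and their part in the changes of these members was not tested.

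The markers of resident cells moved less. Of 6 markers of fibroblasts and reticular cells 3 rose, with mean levels of 0.14 to 0.32 on the MRL arrays and 1.10 to 1.15 on the LPR arrays. Of the endothelial markers 0 of 6 rose and 1 fell (1.29 to 1.33 against 1.05 to 1.19), of the tubule markers 0 of 7 rose and 2 fell, and of the 5 podocyte markers 0 were called (0.62 to 0.77 against 0.66 to 1.07). Ltbr, with its change of -0.01, is known to be expressed by epithelial, endothelial and stromal cells, and the part of these lists in its level was not tested.

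The genes whose pattern over the 6 arrays was nearest to that of a member were sought among 19346 named genes above background on all arrays, after the mean of each gene was set to 0. With a wide gap between the groups, this measure mainly finds genes with a change of similar size. Nearness is therefore no evidence of a shared cell type or regulation. The nearest to Ltb, by the root mean square difference in log2 units, were AW112010 (0.11), C1qa (0.113) and C1qc (0.119). Their rises were 3.63, 3.43 and 3.43, beside 3.60 for Ltb. C1qa and C1qc encode chains of complement C1q, which macrophages make. The nearest to Il7r were the genes of the guanylate-binding proteins Gbp2 (0.295) and Gbp8 (0.297) and of the lymphocyte inhibitory receptor Btla (0.316), which had rises of 3.73, 3.94 and 3.42.

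Ltb, Tnf and Lta lie within 11.1 kb of mouse chromosome 17 (GRCm38.p6), and the genes around them were examined for whether the rise was shared. Of 29 genes within 100 kb on either side, with Ltb, Tnf and Lta counted among them, 18 could be tested by their brightest probe. Of these, 5 were higher and 1 lower, where 7.12% of all tested genes were called higher and 5.39% lower. The lower one was D17H6S53E (-0.50, adjusted p = 0.0275). Those that rose were Ltb and Lta, Lst1 (0.81, adjusted p = 0.00546) and Aif1 (3.31, adjusted p = 0.00153), which are known from leukocytes and macrophages, and H2-D1 (3.36, adjusted p = 1.8e-05), an MHC class I gene with near-identical relatives that a probe may not tell apart. Between these lay genes that were not called, such as Nfkbil1 (-0.00, standard error 0.15, adjusted p = 1).

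**Figure D4:**
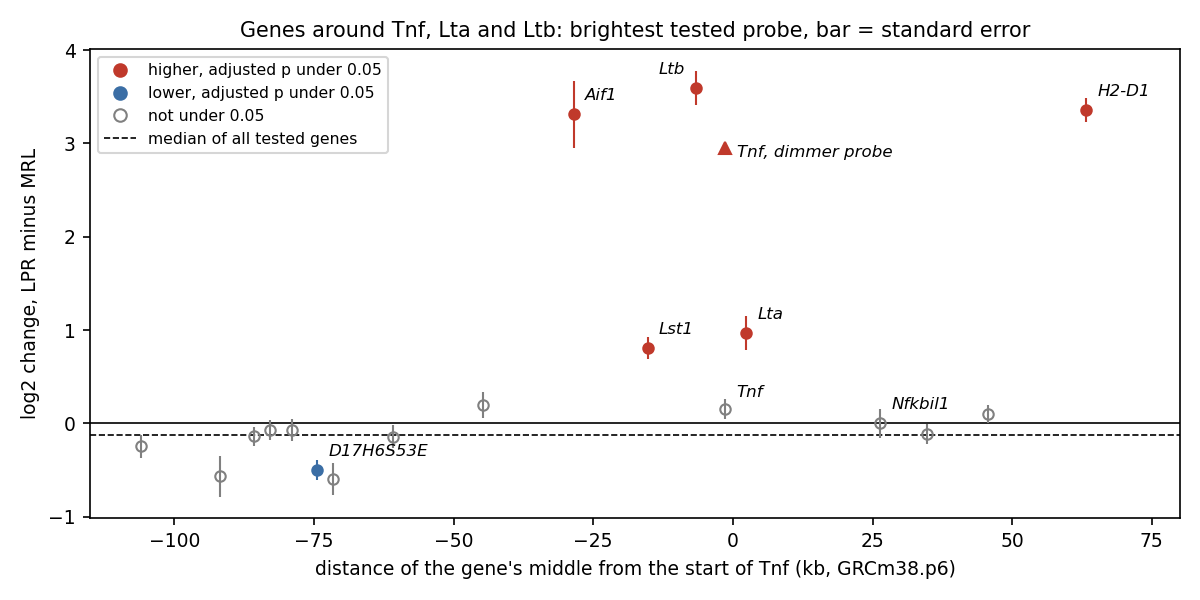
Log2 change (LPR minus MRL) of the 18 tested genes around Tnf against the distance of the middle of the gene from the start of Tnf in kb, with the standard error as a bar and called genes filled. The triangle is the dimmer of the 2 Tnf probes. Ltb (3.60), Aif1 (3.31) and H2-D1 (3.36) stand high, and most genes between and around them lie near the median of all tested genes (-0.12).

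The places of the arrays on the slide were uneven between the groups, since row 1 held the 3 MRL arrays and LPR mouse 1, and row 2 held the LPR mice 2 and 3. With the row in the fit, the difference is that of LPR mouse 1 from the 3 MRL mice, a group of 1 that is assumed to vary like the other mice, and the spread comes from the MRL mice and from LPR mice 2 and 3. In this fit the changes of Ltb (3.56, adjusted p = 0.003), Il7r (4.04, adjusted p = 0.0148), Tnf at base 1110 (3.04, adjusted p = 0.00325) and RANK at A_52_P1068320 (1.20, adjusted p = 0.0455) had an adjusted p under 0.05. Those of Lta (0.80, adjusted p = 0.159) and RANK at A_55_P2621650 (0.75, adjusted p = 0.064) did not. With 1 LPR mouse in the row these values are no replicated test. Normexp background correction, which compresses dim signals, brought the change of Tnf at base 1110 to 1.01, of Lta to 0.48 and of RANK at A_52_P1068320 to 0.54, all still called, and that of A_55_P2621650 to 0.17, not called (adjusted p = 0.176).

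**Figure D5:**
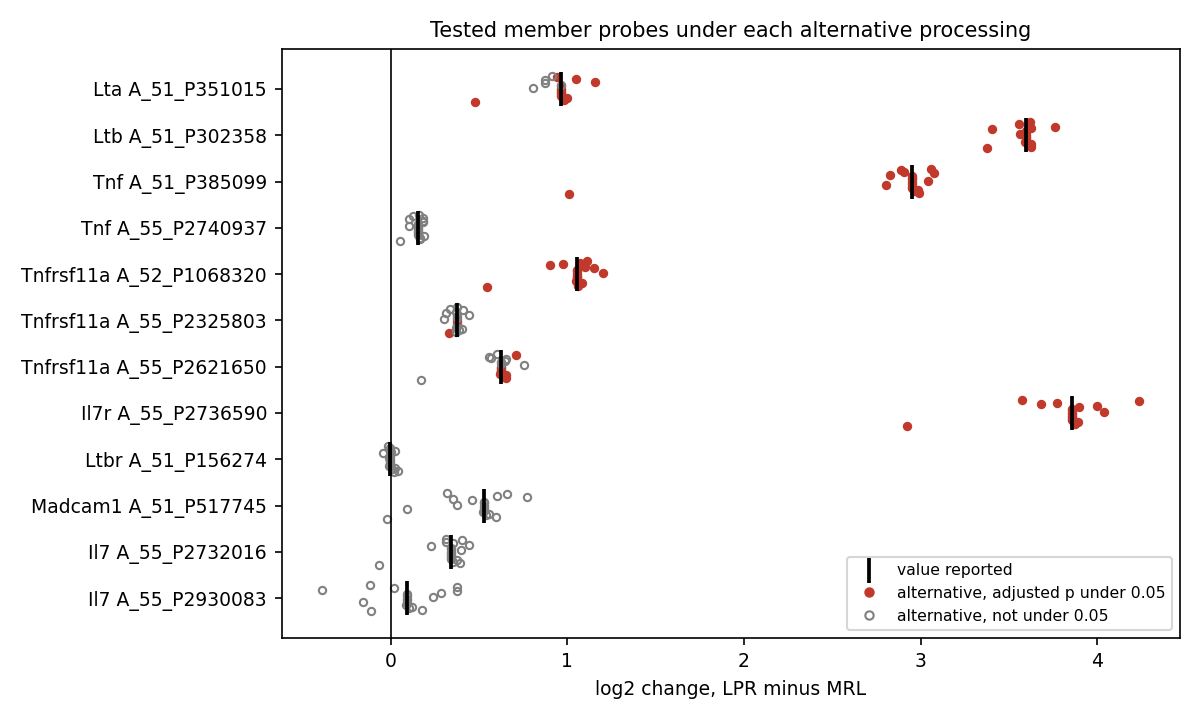
Log2 change (LPR minus MRL) of the 12 tested member probes as reported (black bars) and under each alternative processing (points, filled red where the adjusted p was under 0.05). The points of Ltb lie between 3.38 and 3.76 and those of Il7r between 2.92 and 4.24, all called, and the points of Ltbr lie on both sides of 0.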

How the data were processed

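Gene expression was measured on 6 single-colour arrays (Agilent SurePrint G3 mouse, Cy3-labelled cRNA) of 1 slide. The authors deposited, for each spot, the intensity from Feature Extraction 12.0.3.1 (as the submitters' processing notes and the file headers give it), with the background subtracted. They also deposited a ratio per spot, this intensity divided by a 75th percentile of the array, which served as an alternative. Probe positions are those of the files, build mm9. No annotation of that build was used, so exons and untranslated regions are not given.

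Control spots and the 73 to 90 outlier spots per array were left out, and the log2 intensities were centred on the 75th percentile of their array (700 to 930 before the log), as in the methods of the study. Spots of 1 probe were averaged. The comparison of LPR with MRL mice used limma 3.58.1 (R 4.3.3). The alternatives were quantile normalization, normexp (offset 50), centring on the median or on the percentile of detected probes, the authors' divided values, 2 other filters, a floor, outliers kept, an intensity trend, the slide row, a replicate block, each mouse left out, the methods' t-test and gene means. The 6 mice are separate animals, and the number of arrays limits the precision. On simulated data with 42602 spots, limma recovered 123 of 200 changed spots, with 6 false calls. These were 85 of 100 at a log2 change of 2 and 38 of 100 at a log2 change of 1. The simulated spots were independent and far fewer of them were changed than were called here, so these counts need not hold for the arrays.

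The members, the gene lists, the sides and the tests were chosen with earlier results of these data known. Named are all member probes, Fas, the genes of each pathway list with the largest and smallest called changes, a set of receptors, factors and products of the axis whatever their values, and the 3 genes nearest in pattern to Ltb and Il7r. A gene of the lists is not reported here and remains in the counts. Chuk and the named neighbours on chromosome 17 were chosen after their values were seen. Of the 16 member probes, 13 carry a RefSeq accession, and all 13 matched the same current symbol. Promoter sequences are from RefSeq, build GRCm38.p6. Plots were made with matplotlib 3.10.9 (python 3.11.15).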

Additional observations from a re-analysis of the deposited data

How the results depend on the processing

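The calls of Ltb, Il7r, Tnf at base 1110 and RANK at A_52_P1068320 were kept under every alternative that could be run for them. Lta lost its call under 5 of 19 alternatives and RANK at A_55_P2621650 under 9 of 19, while RANK at A_55_P2325803 gained one under normexp and the intensity trend. Between 4 and 6 member probes, all of the inducer side, were called higher when 1 mouse was left out, and 0 were lower. Without the filter on dim probes 1 organizer probe, of Tnfsf11, was called higher. Values that did not pass the threshold changed sign as follows. Ltbr gave 0.016 under normexp, 0.039 under quantile normalization, 0.0049 under the median shift, 0.024 with the percentile of detected probes and -0.047 to 0.023 without 1 mouse. The Il7 probe A_55_P2930083 gave -0.11 under normexp, -0.16 with the floor and -0.39 to 0.37 without 1 mouse, and under normexp A_55_P2732016 gave -0.066 and Madcam1 -0.022. Over all probes, 2610 were higher and 2423 lower. The slide row gave 1469 and 456, the adjusted t-test 1732 and 1346, normexp 4542 lower (35.8% of the calls higher, against 51.9%), no filter 1086 lower, and the unadjusted t-test 7104 lower. Without 1 mouse the counts were 1968 to 2378 higher and 749 to 2270 lower. The pathway genes, 30 higher and 3 lower, became 17 and 0 with the slide row and 18 and 1 with the adjusted t-test, 1 lower without the filter, 5 lower with the unadjusted t-test, and 21 to 26 higher and 0 to 3 lower without 1 mouse. The deviations of mice of the same number had correlations of 0.146, 0.029 and 0.0166. Mice of different numbers were not compared in this way, so these values cannot exclude a pairing. The main fit used none. The replicate block gave 2208 higher and 1107 lower probes, 24 higher and 0 lower pathway genes and 5 higher member probes, without RANK at A_55_P2621650. Median changes of all probes lay between -0.17 and -0.10 under all settings. Signal over background limits what can be said of Tnfsf11, Il7 and Madcam1. The causes of these shifts were not tested.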
